A study of Mus musculus with 6 samples.

Results

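The small heat shock proteins described here are the products of Hspb6, Hspb1, Hspb2, Hspb7, Hspb8 and Cryab, 6 of the 24415 gene IDs counted in the inguinal white adipose tissue of mice, a fat depot under the skin. The genes were taken by symbol through their Entrez IDs, not by how they changed. RNA was sequenced from 3 WT mice and 3 mice labelled Hsp20 KO, all aged 12 weeks, on a C57BL/6 background and not fasted, with 1 library per mouse. Hsp20 is the protein made from Hspb6, so the targeted gene is itself one of the 6. The sources used here do not state how the Hsp20 KO allele was made, in which cells it acts or which part of Hspb6 it lacks. The comparison asks how the targeted gene and its relatives differ in this depot between the labelled genotypes.

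Small heat shock proteins share a conserved domain, named after the alpha-crystallins of the lens, through which they pair and build larger assemblies. They hold partly unfolded proteins in solution without using ATP and hand them to ATP-dependent chaperones of the Hsp70 family. Heart, skeletal muscle and smooth muscle are rich in several of them, and Hspb1, Hspb8 and Cryab are also made in many other cell types. Heat shock factors switch on some of these genes by binding heat shock elements, inverted repeats of the unit GAA in promoters.

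Promoter windows from RefSeq (GRCm38.p6, 250 bases before to 50 after a start site) were found for Hspb6, with 2 start sites, and for Hspb1, Hspb7 and Hspb8, each with 1. Hspb2 and Cryab had none. The first set printed holds the 30 bases around each match to GAANNTTC, a pair of inverted heat shock units, because the targeted gene and its relatives Hspb1 and Hspb8 carry the same 8 letters there. Capitals mark the match.
Hspb6, second start site (chr7:30553170-30553199, plus strand): aagtaattattGAAGTTTCtaaataaggaa
Hspb1 (chr5:135887791-135887820, plus strand): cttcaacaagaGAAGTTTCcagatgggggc
Hspb1, second match (chr5:135887811-135887840, plus strand): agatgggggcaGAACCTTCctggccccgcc
Hspb8 (chr5:116422844-116422873, minus strand): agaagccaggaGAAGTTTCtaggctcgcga
The match began 120 bases before the second Hspb6 start site, 117 bases before the Hspb1 start site and, in Hspb8, at base 3 of the transcript. The second Hspb1 match began 97 bases before the start site. Of all 32851 promoter windows of the same length, 7.86% held GAANNTTC. The reverse arrangement TTCNNGAA, held by 8.52% of windows, matched none of the 5 windows. Both patterns read the same on either strand. The Hspb7 window held neither.

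The next set gives the 250 bases before both start sites of Hspb6, the locus that the genotype names, with GAANNTTC, TATAAA and CCAAT in capitals on either strand.
Hspb6, first start site (chr7:30552290-30552539, plus strand): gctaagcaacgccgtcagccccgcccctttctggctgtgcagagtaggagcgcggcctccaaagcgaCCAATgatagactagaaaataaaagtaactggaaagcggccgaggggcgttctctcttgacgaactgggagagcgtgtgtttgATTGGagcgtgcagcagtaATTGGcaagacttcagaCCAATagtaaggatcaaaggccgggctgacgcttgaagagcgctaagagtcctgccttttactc
Hspb6, second start site (chr7:30553051-30553300, plus strand): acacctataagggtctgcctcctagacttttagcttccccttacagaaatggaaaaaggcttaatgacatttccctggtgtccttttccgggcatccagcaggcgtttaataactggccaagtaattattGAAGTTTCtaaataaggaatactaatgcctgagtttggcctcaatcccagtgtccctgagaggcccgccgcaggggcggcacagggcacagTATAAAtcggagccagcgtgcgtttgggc
The window of the first start site held CCAAT at 4 places and neither of the other motifs. The window of the second held 1 TATAAA, beginning 29 bases before the start, and 1 GAANNTTC. TATAAA was in 13.6% and CCAAT in 37.4% of all windows, and none overlapped another motif here. The deposited counts are per gene, so reads from the 2 start sites were not told apart.

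Library totals ran from 14078936 to 32648746 counts, the smallest being labelled Hsp20 KO replicate 3. In every library the adipocyte genes Adipoq (from 1036 to 1807 CPM) and Plin1 (from 894 to 1532 CPM) were abundant. CPM values are counts scaled to TMM-adjusted library sizes. WT replicate 1 stood apart in skeletal muscle transcripts, with a summed level of 1226 CPM over 20 markers against 115 to 209 CPM in the other 5 libraries. The labels name no batch. In bulk tissue, fewer cells of a type and less RNA per cell cannot be told apart.

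Hspb6, the targeted gene, was lower in the libraries labelled Hsp20 KO, but unevenly, and the difference did not pass the test over all libraries. The gene (ID 243912) spans positions 30552535 to 30555443 of chromosome 7 on GRCm38, on the plus strand, with up to 3 exons per annotated transcript. It had 325, 289 and 296 counts in WT replicates 1 to 3, and 245, 33 and 53 counts in the libraries labelled Hsp20 KO replicates 1 to 3. As CPM these were 12.6, 9.43 and 8.95 against 8.86, 1.51 and 3.94. Labelled KO replicate 1 thus stood at 85.7% of the WT mean, and labelled KO replicates 2 and 3 at 14.6% and 38.1%. The library labelled KO replicate 1 goes against its label in its Hspb6 level, which lay just under that of WT replicate 3. Its summed level of 11 thermogenic adipocyte markers lay outside the WT range, at 280 CPM against 88.1 to 118 CPM. Whether the label is right was not tested.

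The groups did not overlap in Hspb6, but the gap between labelled KO replicate 1 and WT replicate 3 was inside counting error. The 95% exact Poisson intervals, which cover counting error only, were 7.78 to 10.04 CPM for labelled KO replicate 1 and 7.96 to 10.03 CPM for WT replicate 3. Labelled KO replicates 2 and 3 also differed from each other by more than counting error, at 1.04 to 2.12 CPM against 2.95 to 5.15 CPM. The group means of Hspb6 were 10.3 ± 1.99 CPM (WT) and 4.77 ± 3.74 CPM (labelled Hsp20 KO; SD, n = 3 each). The log2 change was -1.08 ± 0.51 (SE), with an adjusted p of 0.227 from the edgeR quasi-likelihood fit. Without labelled KO replicate 1 it was -1.99 ± 0.38 (edgeR adjusted p = 0.0221), and without labelled KO replicate 2 it was -0.64 (edgeR adjusted p = 0.289). Every direction below is that of the libraries labelled Hsp20 KO, replicate 1 included, against WT, unless that library is said to be left out.

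**Figure D1:**
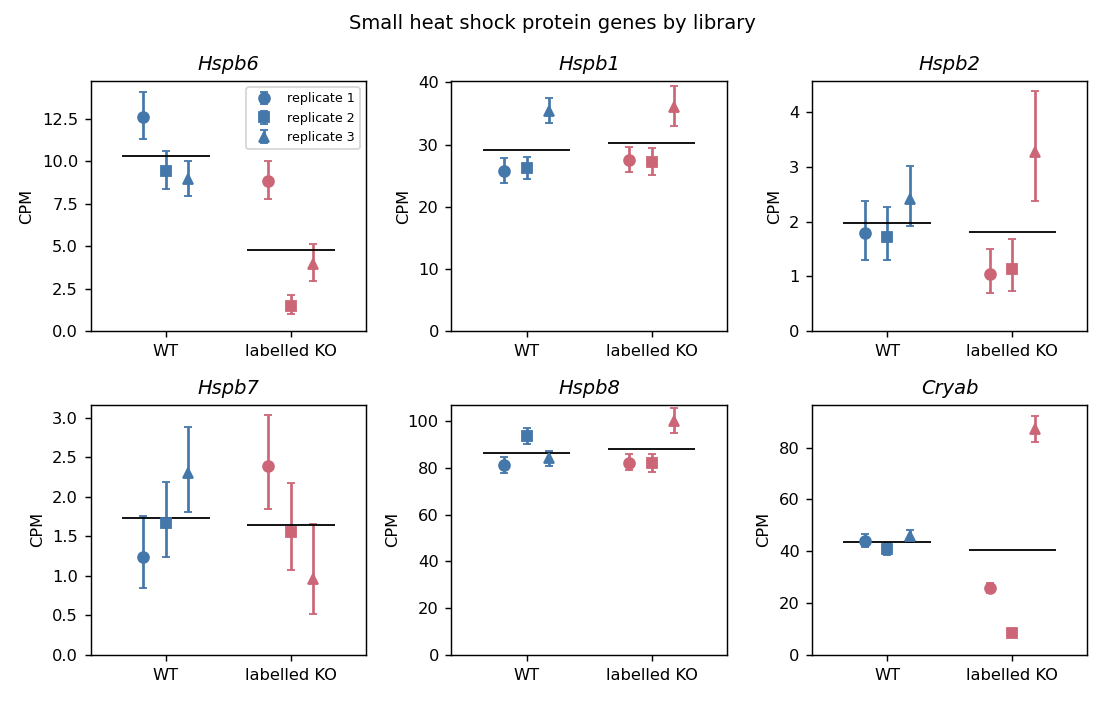
Each panel plots 1 gene, with CPM on a linear axis from 0, 1 point per library and bars for the 95% exact Poisson counting interval, and horizontal lines mark the group means. Hspb6 is lowest in labelled KO replicates 2 and 3 (1.51 and 3.94 CPM), and Cryab lies between 40.7 and 45.8 CPM in WT but between 8.52 and 87.2 CPM in the libraries labelled KO.

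None of the 6 genes passed the test with all libraries. In that comparison 7.65% of 15994 tested genes were called, by an edgeR adjusted p under 0.05, 4.23% as higher and 3.42% as lower in the libraries labelled KO. All 6 genes passed the filter on low counts. At an unadjusted p under 0.05 edgeR's quasi-likelihood test gave 0 of the 6, beside 26% of all tested genes, and limma-voom gave 1 lower. DESeq2 gave 0 called and 0 under that unadjusted p. The groups did not overlap for 1 of the 6, Hspb6, beside 32.5% of all tested genes, of which 16.9% were higher and 15.6% lower in the libraries labelled KO. The median log2 change of the 6 genes was -0.09, and that of all tested genes was 0.00061. Without labelled KO replicate 1 Hspb6 was the 1 gene of the 6 called, as lower, beside 10.3% of 16167 tested genes called in either direction and 4.52% called lower.

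**Figure D2:**
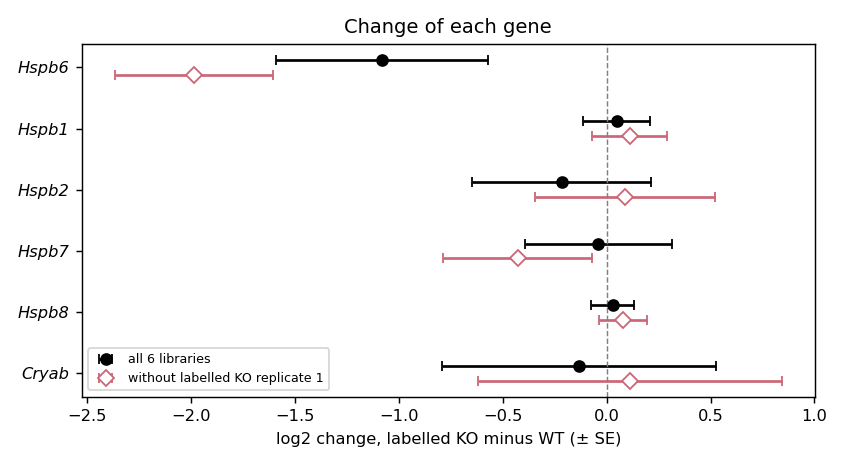
Log2 changes, labelled KO minus WT, with SE from the edgeR quasi-likelihood fit are plotted for the 6 genes with all libraries (filled circles) and without labelled KO replicate 1 (open diamonds). Hspb6 moves from -1.08 to -1.99, while the other 5 genes lie within 0.43 of 0 in both fits.

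The locus around Hspb6 holds other counted genes. Proser3, which ends 141 bases before Hspb6, had means of 4.09 ± 0.385 CPM (WT) and 3.96 ± 1.19 CPM (labelled KO; SD, n = 3 each; edgeR adjusted p = 0.957). The other flanking gene, Lin37, encodes a subunit of a cell cycle repressor complex and shares 3 bases with the end of Hspb6. It had 11.2 ± 0.798 and 11.1 ± 1.61 CPM (edgeR adjusted p = 0.969). The log2 changes were -0.025 ± 0.22 for Proser3 and -0.011 ± 0.14 for Lin37. By library Proser3 had 4.39, 3.66 and 4.23 CPM in WT replicates 1 to 3 and 5.28, 3.62 and 2.97 CPM in labelled KO replicates 1 to 3, so its lowest libraries were also labelled KO replicates 2 and 3. Lin37 was lowest in labelled KO replicate 1 (9.29 CPM) and highest in labelled KO replicate 3 (12.3 CPM).

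Inside Hspb6 lies Gm38670, a microRNA gene of 77 bases (chr7:30552828-30552904), all of it within an annotated Hspb6 exon and between the 2 start sites printed above. Its mature forms are given because reads assigned to it were uneven between the libraries. Capitals mark the seed, bases 2 to 8.
mmu-miR-9769-5p: aGGCACAGaauuaggcccgacc
mmu-miR-9769-3p: uAGGGUCUguucuguguccucc
Gm38670 had 25 counts in labelled KO replicate 1 and 1 count each in labelled KO replicates 2 and 3, and 0 in all 3 WT libraries. A count of 0 allows up to 3 counts per library. The gene did not pass the filter on low counts, so it has no test. Those 25 counts were in the library whose Hspb6 level was near WT. Long-RNA reads over this stretch cannot be told apart from an Hspb6 transcript that contains it, and the mature microRNA was not measured.

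Cryab, which encodes the alpha-B crystallin chaperone of lens, muscle and glia, did not pass the test but was far more uneven in the libraries labelled KO than in WT. The gene (ID 12955) lies on chromosome 9 at 50745951 to 50756636. It had 44.1, 40.7 and 45.8 CPM in WT replicates 1 to 3, from 1137, 1248 and 1515 counts. In labelled KO replicates 1 to 3 it had 25.7, 8.52 and 87.2 CPM, from 712, 186 and 1174 counts. Labelled KO replicate 3 was above every WT library, and labelled KO replicates 1 and 2 were below every WT library. The highest labelled KO library was 10.2 times the lowest, against 1.12 times in WT. The means were 43.6 ± 2.59 and 40.5 ± 41.3 CPM (SD, n = 3 each), with a log2 change of -0.13 ± 0.66 (edgeR adjusted p = 0.918). The sign turned with single libraries: 0.11 without labelled KO replicate 1, 0.36 without labelled KO replicate 2 and -1.32 without labelled KO replicate 3 (edgeR adjusted p = 0.941, 0.663 and 0.116). With all libraries kept, limma-voom gave -0.85 (adjusted p = 0.435).

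Hspb2, first described as a binding partner of the myotonic dystrophy kinase, is the neighbour of Cryab on the opposite strand (ID 69253, chromosome 9, 50751072 to 50752354). The 2 genes share 252 exonic bases in the GENCODE annotation, 30.2% of the Hspb2 exons, so without strand their reads there cannot be told apart. Between any other pair of the 6 genes the longest identical stretch was 16 bases, on either strand. Hspb2 had 1.79, 1.73 and 2.42 CPM in WT replicates 1 to 3 and 1.05, 1.14 and 3.27 CPM in labelled KO replicates 1 to 3. As with Cryab, labelled KO replicate 3 was the highest of the 6 libraries and labelled KO replicates 1 and 2 were the lowest. Hspb2 had only 25 to 80 counts a library, and this order was partly inside counting error. The 95% exact Poisson intervals were 2.37 to 4.39 CPM for labelled KO replicate 3 and 1.92 to 3.01 CPM for WT replicate 3. They were 0.70 to 1.51 CPM for labelled KO replicate 1 and 1.30 to 2.26 CPM for WT replicate 2. The log2 change was -0.22 ± 0.43 (edgeR adjusted p = 0.792). It was -0.85 without labelled KO replicate 3, and 0.09 and 0.02 without labelled KO replicates 1 and 2.

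The pair did not keep a fixed ratio. Cryab was 24.7, 23.5 and 18.9 times Hspb2 in CPM in WT replicates 1 to 3, and 24.6, 7.44 and 26.7 times in labelled KO replicates 1 to 3. The ratio was lowest in labelled KO replicate 2, which had the least Cryab of the 6 libraries, while Hspb2 was lowest in labelled KO replicate 1. Summed levels of 10 Schwann cell markers moved with Cryab across the libraries labelled KO: 541, 409 and 698 CPM in labelled KO replicates 1 to 3, against 507 to 584 CPM in WT. Labelled KO replicate 3 was 1.71 times labelled KO replicate 2 in that sum, and no marker of the list was at 0 in any library. Sox10, the transcription factor that defines this lineage, had 3.69, 1.37 and 3.04 CPM in labelled KO replicates 1 to 3 and 3.43 to 4.39 CPM in WT, so it was not highest where Cryab was. The same order of the 3 libraries was seen in the summed adipocyte (27462, 22570 and 32217 CPM), pericyte (747, 676 and 906 CPM) and endothelial markers (1081, 1042 and 1232 CPM). Their part in the Cryab and Hspb2 values was not tested. Skeletal muscle markers were highest in WT replicate 1, where Cryab was 44.1 CPM, between those of the other WT libraries. Of the other neighbours within 5 kb, 2310030G06Rik overlaps the span of Cryab by 577 bases, and whether exons are shared was not examined. It had 13, 12 and 10 counts in WT replicates 1 to 3 and 31, 17 and 12 counts in labelled KO replicates 1 to 3. Its log2 change was 1.24 ± 0.31 (edgeR adjusted p = 0.0534). For 1110032A03Rik the log2 change was 0.16 ± 0.19, with an edgeR adjusted p of 0.647.

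Hspb8 and Hspb1 varied least of the 6 between the libraries labelled KO, whereas in WT Cryab varied least. Hspb8, which works with the co-chaperone BAG3 in sending damaged proteins to autophagy (ID 80888, chromosome 5, 116408491 to 116422864), had 81.1, 93.8 and 84.1 CPM in WT replicates 1 to 3. In labelled KO replicates 1 to 3 it had 82.3, 82.2 and 100.2 CPM, so the groups overlapped and labelled KO replicate 3 was the highest. The means were 86.3 ± 6.61 and 88.2 ± 10.4 CPM (SD, n = 3 each), a log2 change of 0.029 ± 0.10 (edgeR adjusted p = 0.885). Its sign depended on single libraries, between -0.062 without labelled KO replicate 3 and 0.093 without WT replicate 2, and it was 0.078 without labelled KO replicate 1.

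Hspb1, called Hsp25 in the mouse and a regulator of actin filaments (ID 15507, chromosome 5, 135887919 to 135889563), had 25.8, 26.2 and 35.5 CPM in WT replicates 1 to 3. In labelled KO replicates 1 to 3 it had 27.6, 27.2 and 36.1 CPM. In each group replicate 3 was the highest, and the groups overlapped throughout. The log2 change was 0.048 ± 0.16 (edgeR adjusted p = 0.879), between -0.082 without labelled KO replicate 3 and 0.22 without WT replicate 3, and it was 0.11 without labelled KO replicate 1. Hspb6, Hspb1 and Hspb8, which hold the same 8 letters near a start site, had log2 changes of -1.08, 0.048 and 0.029.

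Hspb7, a small heat shock protein best known from heart and skeletal muscle (ID 29818, chromosome 4, 141420779 to 141425310), was the scarcest of the 6. It had 32, 51 and 76 counts in WT replicates 1 to 3 and 66, 34 and 13 counts in labelled KO replicates 1 to 3. As CPM these were 1.24, 1.66 and 2.30 against 2.39, 1.56 and 0.965. The lowest and the highest libraries were both labelled KO, and the WT values lay between them. The log2 change was -0.040 ± 0.35 (edgeR adjusted p = 0.956), between -0.43 without labelled KO replicate 1 and 0.21 without WT replicate 3. At 13 to 76 counts a library, a difference within these error bounds was not detectable.

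Compared per length, as RPKM over the union of annotated exons, Hspb8 was the most abundant of the 6 in WT. Mean WT levels were 44.3 ± 3.39 RPKM for Hspb8, 29.4 ± 1.75 for Cryab, 28.3 ± 5.31 for Hspb1, 4.49 ± 0.866 for Hspb6, 2.37 ± 0.459 for Hspb2 and 0.627 ± 0.192 for Hspb7 (SD, n = 3). Cryab and Hspb1 overlapped in their WT ranges, and no other neighbours in this order did. The order of the WT means was the same with the longest transcript or the coding length. In the libraries labelled KO the ranges were 42.1 to 51.4 RPKM for Hspb8, 5.76 to 58.9 for Cryab, 0.657 to 3.85 for Hspb6, 1.26 to 3.92 for Hspb2 and 0.349 to 0.862 for Hspb7, and Hspb1 had 29.4 ± 4.87 RPKM (SD, n = 3). Cryab there overlapped both Hspb1 and Hspb8, and Hspb6 overlapped both Hspb2 and Hspb7.

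Hspb6 was a small share of the summed RPKM of the 6 genes even in WT, at 5.25%, 3.81% and 3.35% in WT replicates 1 to 3. In labelled KO replicates 1 to 3 its share was 4.17%, 0.855% and 1.13%, so labelled KO replicate 1 lay within the WT range. The summed level was 105, 108 and 116 RPKM in WT and 92.3, 76.9 and 151 RPKM in the libraries labelled KO, with means of 109 ± 5.97 and 107 ± 39.3 RPKM (SD, n = 3 each; exact two-sided permutation test, p = 1, where the smallest p possible is 0.1). Cryab varied most in this sum, making up 25.5% to 28.6% of it in WT and 18.8%, 7.49% and 39.0% in labelled KO replicates 1 to 3.

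**Figure D3:**
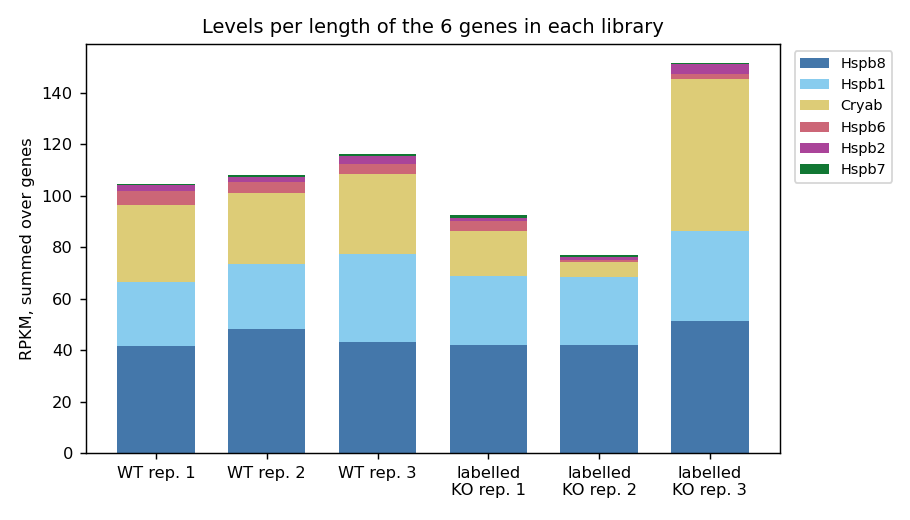
Bars stack the RPKM of the 6 genes in each library, on a linear axis from 0. The Hspb8 segment runs from 41.6 to 51.4 RPKM, while the Cryab segment runs from 5.76 RPKM in labelled KO replicate 2 to 58.9 RPKM in labelled KO replicate 3.

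The 6 genes differed widely in their spread between the libraries labelled KO. The SD of log2 CPM over the 3 labelled KO libraries was 1.67 for Cryab, 1.25 for Hspb6, 0.87 for Hspb2 and 0.62 for Hspb7, against a median of 0.17 over all tested genes. For Cryab 99.7% of tested genes had a smaller labelled KO spread, for Hspb6 99.3% and for Hspb2 97.9%. For Hspb1 and Hspb8, with 0.23 and 0.16, these shares were 64.7% and 49.6%. In WT Cryab was among the steadier genes, with an SD of 0.086 and 35.2% of tested genes below it. The WT values of Hspb6, Hspb1 and Hspb2 were each 0.26, those of Hspb7 and Hspb8 were 0.42 and 0.11, and the median over all tested genes was 0.12. These percentages describe the 6 libraries and are no test of a difference in variance.

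**Figure D4:**
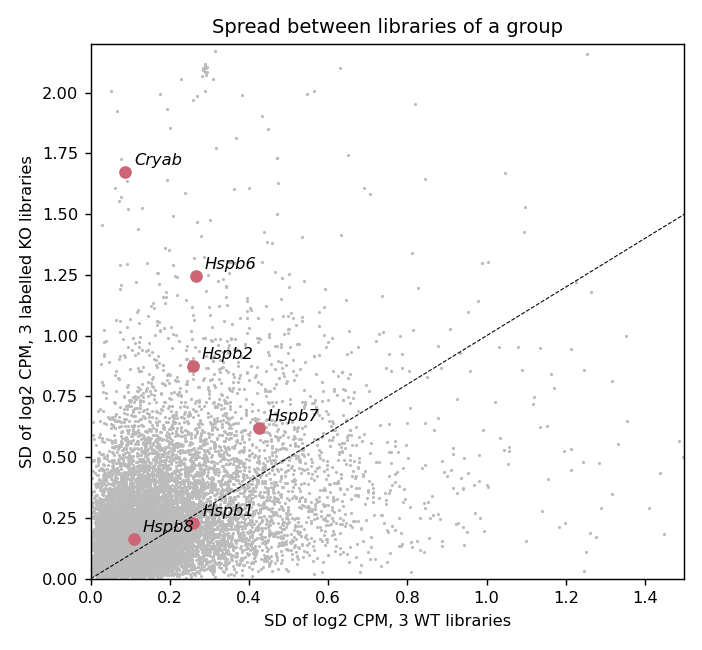
Each grey point is a tested gene, with the SD of log2 CPM over the WT libraries on the x axis and over the libraries labelled KO on the y axis, the dashed line marks equal spread, and 41 genes lie outside the plotted range. Cryab (0.086 and 1.67) and Hspb6 (0.26 and 1.25) lie far above the line, and Hspb1 and Hspb8 lie close to it.

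Profiles over the 6 libraries were compared with those of 14680 other tested genes of at least 1 CPM. Likeness was the root mean square difference of log2 CPM, with each gene centred on its own mean. The gene nearest to Hspb6 was Trim30d (0.19), a tripartite motif gene, with 34.6, 28.9 and 37.3 CPM in WT replicates 1 to 3 and 30.4, 5.86 and 13.3 CPM in labelled KO replicates 1 to 3. Rhox8, a reproductive homeobox gene, followed (0.25), then Apobec3, a cytidine deaminase that restricts retroviruses (0.26), Trim30b (0.27) and Fbln7, a matrix fibulin (0.29). Apobec3 had 107, 110 and 118 CPM in WT against 97.4, 23.8 and 51.2 CPM in labelled KO replicates 1 to 3. All 5 genes, like Hspb6, were lowest in labelled KO replicate 2, and none was called with all libraries (edgeR adjusted p from 0.171 to 0.277).

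The genes nearest to Cryab were C920006O11Rik (0.25), Chrna5 (0.40), a nicotinic receptor subunit, and Lrmda (0.41). C920006O11Rik had 4.62, 5.09 and 4.75 CPM in WT and 2.78, 0.687 and 6.39 CPM in labelled KO replicates 1 to 3. For Hspb2 the nearest genes were Ret, a receptor kinase of neural and glial development (0.073), Ugt8a, an enzyme of myelin lipid synthesis (0.15), and Sult1e1, an estrogen sulfotransferase (0.19). Among the 6 genes themselves, Hspb2 ranked 28th of 14680 in likeness to Cryab (0.65), and this was the closest rank of any pair from either side. The likeness was not mutual in rank: Cryab ranked 11623rd in likeness to Hspb2, behind Hspb1 (356th) and Hspb8 (1408th). Hspb6 and Cryab were 0.95 apart. Hspb1 lay nearest to Cenpk, Chek1 and Piga (from 0.043 to 0.064), Hspb7 to Htr7, Ect2 and Junb (from 0.15 to 0.17), and Hspb8 to Ift43, Naaa and Park7 (from 0.032 to 0.036). Genes that vary little match many others closely, so these distances are read within a gene only.

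**Figure D5:**
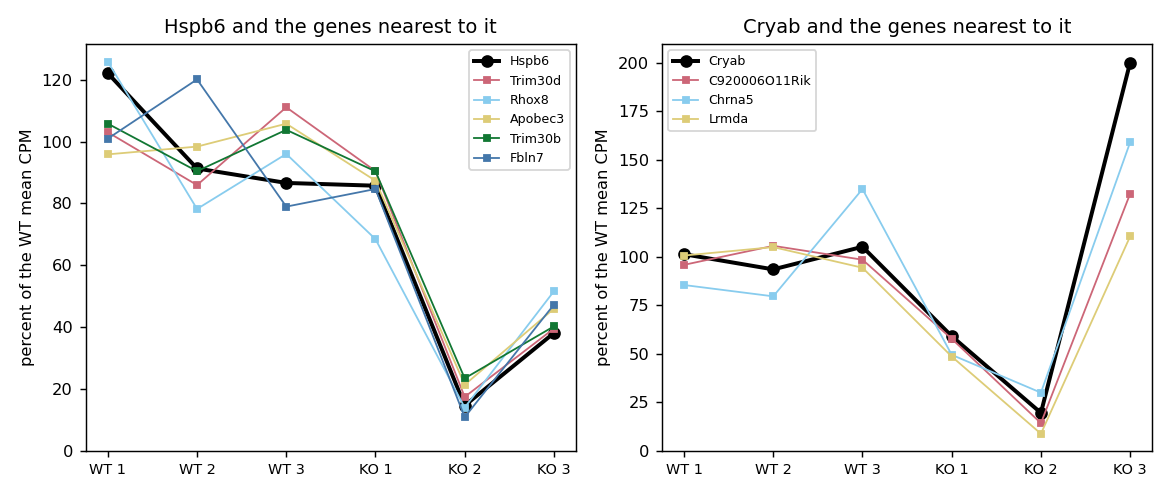
CPM as a percent of each gene's WT mean is plotted by library for Hspb6 with its 5 nearest genes and for Cryab with its 3 nearest, and lines only join the points of a gene. In the Hspb6 panel labelled KO replicate 1 lies near the WT libraries and labelled KO replicate 2 is lowest for every gene, and in the Cryab panel labelled KO replicate 3 is at 200% of the WT mean for Cryab.

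The remaining genes named for this family were nearly silent in the depot, apart from Hspb11. Hspb3, a muscle small heat shock protein, had 3, 0 and 1 counts in WT and 0 in each library labelled KO, where 0 allows up to 3 counts, or 0.108 to 0.223 CPM. Cryaa, the alpha-A crystallin of the lens, had between 1 and 11 counts, Hspb9 of the testis between 0 and 8, and Odf1 of the sperm tail 1 count in labelled KO replicate 1 and 0 elsewhere. None of these 4 passed the filter on low counts. Hspb11, which despite its name encodes a transport protein of cilia, had 3.22, 3.33 and 3.99 CPM in WT and 4.16, 4.81 and 5.20 CPM in labelled KO replicates 1 to 3. The groups did not overlap, and the log2 change of 0.41 ± 0.16 did not pass (edgeR adjusted p = 0.16).

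Genes listed as acting with the small heat shock proteins were counted in 5 lists, and 6 of the listed genes were called. Among these 6 was Pdk1, whose place in its list was not checked. Over all tested genes the share called was 7.65%, with 4.23% higher and 3.42% lower, and 26% had an unadjusted p under 0.05, and the counts of each list are to be read against these shares. In the list around HSPB8 and BAG3, which couples chaperones to autophagy, 0 of 22 genes were called by edgeR's quasi-likelihood test. At an unadjusted p under 0.05 that test gave 5 as higher and 3 as lower. DESeq2 called 3 higher and 2 lower, and limma-voom 1 higher. Over all genes DESeq2 called 2153 and limma-voom 1166, against 1223 by edgeR. DESeq2 was run without the filter on low counts, so here and below its 2153 is not a share of the 15994 tested genes. The list's median log2 change was 0.04. Bag3, the partner of HSPB8, had means of 55.5 ± 3.98 CPM (WT) and 56.6 ± 2.47 CPM (labelled KO; SD, n = 3 each), which is 0.027 ± 0.08 in log2 (edgeR adjusted p = 0.865). The smallest p-values were those of Hdac6, a deacetylase that gathers misfolded proteins, and Ywhag, a 14-3-3 protein (log2 change 0.31 and 0.53, edgeR adjusted p = 0.0511 and 0.0578). Without labelled KO replicate 1, where 10.3% of all tested genes were called, 4 of the 22 were called higher and 1 lower, Flnc, a muscle filamin cleared by this pathway (log2 change -1.11, edgeR adjusted p = 0.0179). Flnc was picked after its values were seen.

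Among heat shock factors and their targets 1 of 23 rose and 0 fell, beside 7.65% called over all genes, with a median log2 change of 0.08. The gene that rose was Hsf4, the heat shock factor of the lens, from 2.59 ± 0.111 to 4.02 ± 0.248 CPM (SD, n = 3 each; log2 change 0.64 ± 0.15, edgeR adjusted p = 0.0436). That call ended when any 1 of the 6 libraries was left out, at adjusted p between 0.0555 (without labelled KO replicate 1) and 0.161 (without WT replicate 3), and also with no filter on low counts (0.0538). Hsf1, the main heat shock factor of stressed cells, had a log2 change of -0.13 ± 0.08 and Hspa8, the constitutive Hsp70, of -0.35 ± 0.18 (edgeR adjusted p = 0.378 and 0.28). DESeq2 called 3 of these genes, 2 higher and 1 lower, beside 2153 over all genes.

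Kinases, phosphatases and 14-3-3 proteins that act on small heat shock proteins had 2 of 26 genes higher and 0 lower, a share near the 7.65% of all genes, with a median of -0.0063. Both code for protein kinase A, which phosphorylates HSP20. Prkaca, its catalytic subunit, rose from 159 ± 9.10 to 224 ± 11.9 CPM (SD, n = 3 each; log2 change 0.49 ± 0.08, edgeR adjusted p = 0.0177). Prkar2b, a regulatory subunit, rose from 429 ± 10.1 to 665 ± 127 CPM (0.63 ± 0.15, edgeR adjusted p = 0.0422). Without WT replicate 1, 2 or 3 neither was called (edgeR adjusted p = 0.0546, 0.0664 and 0.107 for Prkaca, and 0.0956, 0.141 and 0.152 for Prkar2b). Prkar2b was also not called without labelled KO replicate 2 (0.0522). For Mapkapk2, the kinase that phosphorylates Hspb1, the log2 change was -0.014 ± 0.07 (adjusted p = 0.925 by edgeR), and its sign turned under upper quartile normalization. Without labelled KO replicate 1, 3 of the 26 were called higher and 1 lower, beside 10.3% of all tested genes called in either direction.

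Of 13 genes listed as binding partners of HSP20, 1 rose and 2 fell, beside 4.23% higher and 3.42% lower over all genes, with a median of 0.04. Those that fell were Rock1 and Rock2, kinases that contract the actin cytoskeleton. Rock1 went from 142 ± 8.32 to 101 ± 6.86 CPM and Rock2 from 168 ± 18.5 to 112 ± 10.4 CPM (SD, n = 3 each; log2 change -0.50 ± 0.08 and -0.58 ± 0.11, edgeR adjusted p = 0.0184 and 0.0248). The call of Rock1 ended when WT replicate 1, 2 or 3 was left out (adjusted p = 0.0579, 0.0638 and 0.0949 by edgeR). That of Rock2 ended without WT replicate 2 or 3 (0.0806 and 0.0956) or without labelled KO replicate 2 or 3 (0.0584 and 0.062). The gene that rose was Pdk1, from 70.7 ± 4.88 to 115 ± 2.46 CPM (0.71 ± 0.08, edgeR adjusted p = 0.00486). In the mouse this symbol stands for a kinase of pyruvate dehydrogenase, not for the kinase upstream of Akt, whose gene Pdpk1 had a log2 change of -0.04 ± 0.10. Both genes are in the list, so its 1 higher call rests on a gene whose place among the partners was not checked. Pdk1 was called whichever library was left out. Fbxo4, a ubiquitin ligase subunit, and Pparg, the regulator of fat cell differentiation, had log2 changes of 0.04 ± 0.12 and 0.24 ± 0.15 (edgeR adjusted p = 0.869 and 0.333).

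Cytoskeletal clients had 0 of 16 genes called by edgeR's quasi-likelihood test, beside 7.65% of all genes. At its unadjusted p under 0.05, 0 were higher and 2 lower, beside 26% of all genes, and the median was -0.16. DESeq2 and limma-voom each called 1 lower, beside 2153 and 1166 called over all genes. Without labelled KO replicate 3 edgeR called 2, both lower, beside 593 over all genes, a count given without its share. The smallest p-values were those of Actg1, a cytoplasmic actin, from 1419 ± 137 to 1027 ± 42.4 CPM, and Ttn, the giant protein of the sarcomere, from 24.7 ± 30.3 to 3.76 ± 1.04 CPM (SD, n = 3 each; edgeR adjusted p = 0.0628 and 0.109). The Ttn values go with the skeletal muscle markers of WT replicate 1, of which 12 of 19 tested were lower by edgeR's unadjusted p under 0.05 and 0 were called, and their part in it was not tested.

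Markers of smooth muscle and of other cell types were set beside these results. Over all 15994 tested genes edgeR called 4.23% as higher and 3.42% as lower. At its unadjusted p under 0.05, 2126 of them were higher and 2026 lower. The counts of each marker list are to be read against these. Smooth muscle markers summed to between 527 and 565 CPM in WT and between 461 and 521 CPM in the libraries labelled KO, with 2 of 14 called lower, Lmod1 and Cnn1, and no marker at 0. At edgeR's unadjusted p under 0.05, 7 of the 14 were lower and 1 higher, and for 8 of 14 the groups did not overlap, all lower, beside 15.6% of all genes. These sums were 461, 482 and 521 CPM in labelled KO replicates 1 to 3, where Hspb6 had 8.86, 1.51 and 3.94 CPM. Adipocyte markers summed to between 28506 and 30822 CPM in WT and between 22570 and 32217 CPM in the libraries labelled KO, with 1 of 13 called lower. Pericyte sums overlapped between the groups (648 to 748 against 676 to 906 CPM), and 2 of 7 were called higher. Endothelial markers (1215 to 1312 against 1042 to 1232 CPM) had 1 of 11 lower, and the adipose progenitor (3741 to 4429 against 3139 to 5590 CPM) and macrophage lists (1320 to 1491 against 1092 to 1402 CPM) had 0 called by edgeR, 1 of 10 and 4 of 8 being lower at its unadjusted p under 0.05. Thermogenic adipocyte markers rose, 10 of 11, from sums of 88.1 to 118 CPM in WT to 280, 829 and 959 CPM in labelled KO replicates 1 to 3. Labelled KO replicate 1, with the most Hspb6 of the 3, had the lowest sum. But labelled KO replicate 2, with the least Hspb6, had a lower sum than labelled KO replicate 3. The part of any of these markers in the values of the 6 genes was not tested.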

How the data were processed

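The values deposited by the authors are whole read counts for each Entrez gene ID, not normalized, with 1 column per mouse. Per the submitters' processing notes, the builds were mm10 and GRCm38, and the tools named are TopHat, DESeq, CASAVA 1.8 and bcl2fastq. The read counter, annotation and strand were not given in the sources used here. Columns were matched by the sample names in the labels, and 24334 of 24415 IDs matched a RefSeq symbol (GRCm38.p6). Unmatched IDs took from 1.30% to 5.74% of a library. Libraries within a group differed beyond sampling noise (lowest chi-square over its degrees of freedom, 18.1).

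Genes were tested with edgeR 4.0.16 under R 4.3.3 (filterByExpr with minimum count 10 and minimum total 15, TMM, quasi-likelihood F test on genotype, Benjamini-Hochberg threshold 0.05), fitted on all genes. SE is the one implied by F. Nothing shows that replicates were separate litters or batches, so p-values measure the spread between these mice. RPKM used union exon lengths of GENCODE M21, in place of the RefSeq exon lengths first planned, since the RefSeq table used here lists gene spans. Counting intervals cover counting error only. Promoter and microRNA sequences are from RefSeq (GRCm38.p6). Log2 CPM had a prior count of 2. Alternatives were other normalizations, filters, DESeq2 1.42.0, limma-voom (limma 3.58.1), a replicate block, robust dispersions, single libraries left out, and other lengths. The fit was tested on simulated data.

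Named genes were the 6 genes, 5 further family genes, Bag3, Hsf1, Hspa8, Prkaca, Mapkapk2, Fbxo4 and Pparg, up to 4 called genes per list or else the 2 with the smallest p, genes within 5 kb of the 6, and the nearest profiles. A gene taken by this rule is not reported here. The members and lists were chosen with earlier results of these data known.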

Additional observations from a re-analysis of the deposited data

How the results depend on the processing

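Under the 8 settings that kept all libraries (other normalizations, filters, tests, robust dispersions and the replicate block) all 48 values of the 6 genes kept their direction and their side of the threshold. Leaving out single libraries moved the log2 changes between -1.99 and -0.64 for Hspb6, -1.32 and 0.36 for Cryab, -0.85 and 0.088 for Hspb2, -0.43 and 0.21 for Hspb7, -0.082 and 0.22 for Hspb1 and -0.062 and 0.093 for Hspb8. Between 0 and 1 of the 6 were then called, the 1 being Hspb6 without labelled KO replicate 1. For genes outside the 6 the ranges were -0.021 to 0.086 for Bag3, -0.051 to 0.13 for Fbxo4 and -0.054 to 0.011 for Mapkapk2, whose value was 0.00077 with upper quartile normalization. Of the genes in the lists 6 were called, 14 by DESeq2 and 1 with the replicate block. That gene was Pdk1, whose place in its list was not checked. When a library was left out, between 1 (without WT replicate 2 or 3) and 11 (without labelled KO replicate 1) were called. The cause of these differences was not tested. Over all tested genes 1223 were called, 2153 by DESeq2, 395 with the replicate block, and between 128 and 1671 when a library was left out.

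The replicate numbers are not stated to pair the mice. Deviations of same-numbered libraries correlated at -0.038, 0.092 and -0.096 across genes. With 3 libraries per group and genes that are not independent, these values cannot decide whether mice were paired. With the replicate block Hspb6 had -1.34 in log2 (adjusted p = 0.121 by edgeR) and Cryab -0.65 (0.532). The block ended the calls of Prkaca (0.053), Prkar2b (0.0757), Rock1 (0.0564), Rock2 (0.0571) and Hsf4 (0.104). With the coding length mean WT levels were 147 RPKM for Hspb8, 83.0 for Cryab, 46.5 for Hspb1, 21.3 for Hspb6, 3.62 for Hspb2 and 3.42 for Hspb7, and with the longest transcript 39.0 for Cryab. Depth limits Hspb7 and Hspb2 most, at 13 to 80 counts a library.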
